A study of Arabidopsis thaliana with 12 samples.

Results

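The 35 genes described here are the core cell cycle and DNA replication genes of Arabidopsis thaliana that were listed by locus: 3 D-type cyclins and the transcription factor gene E2FA (G1 and the G1/S step), 10 licensing and S phase genes, 16 genes of G2 and mitosis, and 5 genes of mitosis exit and cytokinesis. The list names loci by function and uses no measured value, although it was drawn up with earlier results of these data known. It makes up 35 of the 28775 loci counted. In dividing plant cells, D-type cyclins with their kinase partner release E2F factors from the retinoblastoma protein, and E2F factors switch on genes for origin licensing and DNA synthesis. Later, A- and B-type cyclins with CDKB kinases drive the cell into mitosis, and three-repeat MYB factors such as MYB3R4 bind a short motif, the mitosis-specific activator (MSA) element, before many of these genes. Aurora kinases, the anaphase-promoting complex activator CDC20, the kinesin HIK and the syntaxin KNOLLE act from chromosome alignment to the building of the cell plate that divides the cell.

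Whole plants of the Ws strain were sampled at 14 days on MS medium, in 4 genotypes with 3 messenger RNA sequencing libraries each. Growth-regulating factors (GRFs) are plant transcription factors known for promoting growth of leaves and roots. GRF1_OE and GRF3_OE plants carried GRF1 or GRF3 fused to GFP behind the 35S viral promoter, which is active in most tissues; the other groups were a grf1/grf2/grf3 mutant (grf123) and wild type (WT), and the question was how these factors affect gene expression. Per the labels, plants grew in randomized complete blocks with 3 replications. The labels do not say whether the replicate numbers of the libraries are those blocks, nor whether a line was 1 transgenic event, so the p-values measure the spread between these libraries, which may be technical.

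Gene counts per library ran from 2820223 to 14277574, of which the 35 genes took 0.0342 to 0.0471%, or 965 to 6723 counts. The locus AT3G41768 alone took 13.1 to 31.8% of the gene counts, with the highest share in WT replicate 3. Its share was 17.3 to 19.4% in GRF1_OE and 13.1 to 19.4% in GRF3_OE. In grf123 it was 21.6 to 24.4%, and in WT 17.96 to 31.8%. The part of this locus in the differences between genotypes was not tested. WT replicate 3 was the shallowest library, with the largest share of unique alignments outside genes (12.1%, against 4.08 to 9.53% in the other libraries). Levels of GRF1 in CPM (counts scaled to a common library size after TMM) were 117 to 186 in GRF1_OE and 15.9 to 18.9 in WT, and those of GRF3 were 194 to 220 in GRF3_OE and 15.9 to 29.4 in WT. In the libraries labelled grf123, GRF1 stood at 7.80 to 10.0 CPM and GRF2 at 0.755 to 1.22 CPM (WT 8.34 to 12.4), while GRF3, at 19.8 to 24.7 CPM, was not below WT. The name grf123 therefore stands for the label of these libraries throughout, also where a direction is given. GRF2 was also low in both overexpressors, at 0.309 to 1.28 CPM in GRF1_OE and 0.565 to 1.10 CPM in GRF3_OE, and GRF1 in GRF3_OE, at 8.67 to 8.95 CPM, stood below WT and within the range of grf123. The labels do not say whether the overexpressors are in a mutant background, which would change what their differences from WT and from grf123 compare. In whole plants, fewer dividing cells and less RNA per dividing cell cannot be told apart.

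The DNA before these genes holds short motifs tied to their phase, and 6 upstream stretches are shown because they carry these motifs or belong to MCM7 and CDC6, which each differed in 1 comparison under every alternative tried. Each is the 200 bases before the annotated start in RefSeq's TAIR10.1 assembly, 5′ to 3′ on the strand of the gene. Capitals mark matches to the MSA core AACGG or to an E2F site (TTTCCCGC, TTTCCCGG, TTTCGCGC, TTTCGCGG, TTTGCCGC, TTTGCCGG, TTTGGCGC or TTTGGCGG) on either strand, so that CCGTT is an MSA core read from the other strand. MCM2 and MCM3, which encode subunits of the replicative helicase, carry E2F sites. The upstream stretch of MCM2 is chr1:16970014-16970213 (plus strand) and that of MCM3 is chr5:18773707-18773906 (minus strand).
MCM2: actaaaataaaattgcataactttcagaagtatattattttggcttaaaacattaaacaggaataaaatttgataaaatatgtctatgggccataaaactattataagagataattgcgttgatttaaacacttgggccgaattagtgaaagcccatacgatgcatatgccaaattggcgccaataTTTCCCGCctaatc
MCM3: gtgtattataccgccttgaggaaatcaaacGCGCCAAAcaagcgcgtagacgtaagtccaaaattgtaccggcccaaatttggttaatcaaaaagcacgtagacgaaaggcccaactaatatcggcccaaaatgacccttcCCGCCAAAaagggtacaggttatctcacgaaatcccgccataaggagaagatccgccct
CYCB1;1 and CYCB1;2, which encode cyclins of the entry into mitosis, carry several MSA cores. The stretch of CYCB1;1 is chr4:17624309-17624508 (minus strand) and that of CYCB1;2 is chr5:1861704-1861903 (minus strand).
CYCB1;1: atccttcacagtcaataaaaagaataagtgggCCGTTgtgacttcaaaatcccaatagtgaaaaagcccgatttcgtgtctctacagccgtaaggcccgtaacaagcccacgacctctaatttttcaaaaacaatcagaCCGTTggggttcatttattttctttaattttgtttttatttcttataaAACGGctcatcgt
CYCB1;2: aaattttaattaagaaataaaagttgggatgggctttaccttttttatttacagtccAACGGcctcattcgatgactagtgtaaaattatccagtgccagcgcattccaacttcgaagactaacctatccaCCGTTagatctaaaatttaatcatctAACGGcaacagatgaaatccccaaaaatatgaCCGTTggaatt
MCM7, another helicase subunit, and CDC6, which loads the helicase onto origins, are shown for their RNA differences. The stretch of MCM7 at chr4:900436-900635 on the plus strand has 1 MSA core and no E2F site, and that of CDC6 at chr2:12688971-12689170 on the plus strand has neither.
MCM7: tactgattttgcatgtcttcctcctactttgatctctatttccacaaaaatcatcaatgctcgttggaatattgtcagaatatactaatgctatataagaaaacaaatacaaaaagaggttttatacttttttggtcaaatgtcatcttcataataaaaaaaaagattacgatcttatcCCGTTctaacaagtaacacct
CDC6: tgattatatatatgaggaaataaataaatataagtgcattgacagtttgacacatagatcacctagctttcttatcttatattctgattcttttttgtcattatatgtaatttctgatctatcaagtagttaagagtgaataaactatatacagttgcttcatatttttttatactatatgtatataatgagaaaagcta

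Over the 300 bases before the start, an E2F site was found for 6 of 10 licensing and S phase genes (MCM2, MCM3, MCM4, MCM5, MCM6 and CDT1A), against 3.16% of 28008 promoters of the same length. It was found for CYCD3;3 among the 4 G1 and G1/S genes, and for 0 of the 21 genes of G2, mitosis and cytokinesis. The MSA core was found for 16 of those 21 genes, for 1 of 10 licensing and S phase genes (MCM7) and for 2 of the 4 G1 and G1/S genes (CYCD3;1 and E2FA), against 23.6% of promoters. CYCB1;2 had 4 MSA cores, and CYCB1;1, CYCB1;3, CYCB2;1, CYCB2;2 and CYCB2;3 had 3 each. Exons of other genes cover part of these stretches. They take all 200 bases nearest the start for CYCD3;1 and 191 for MYB3R4, and the MSA core of each lies within those 200 bases. Of the genes without a match, they take 128 for PCNA2, 113 for CDKB1;1, 94 for CDKB2;1 and 87 for PCNA1. A match describes the letters only and was not tied to binding of any factor.

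**Figure D1:**
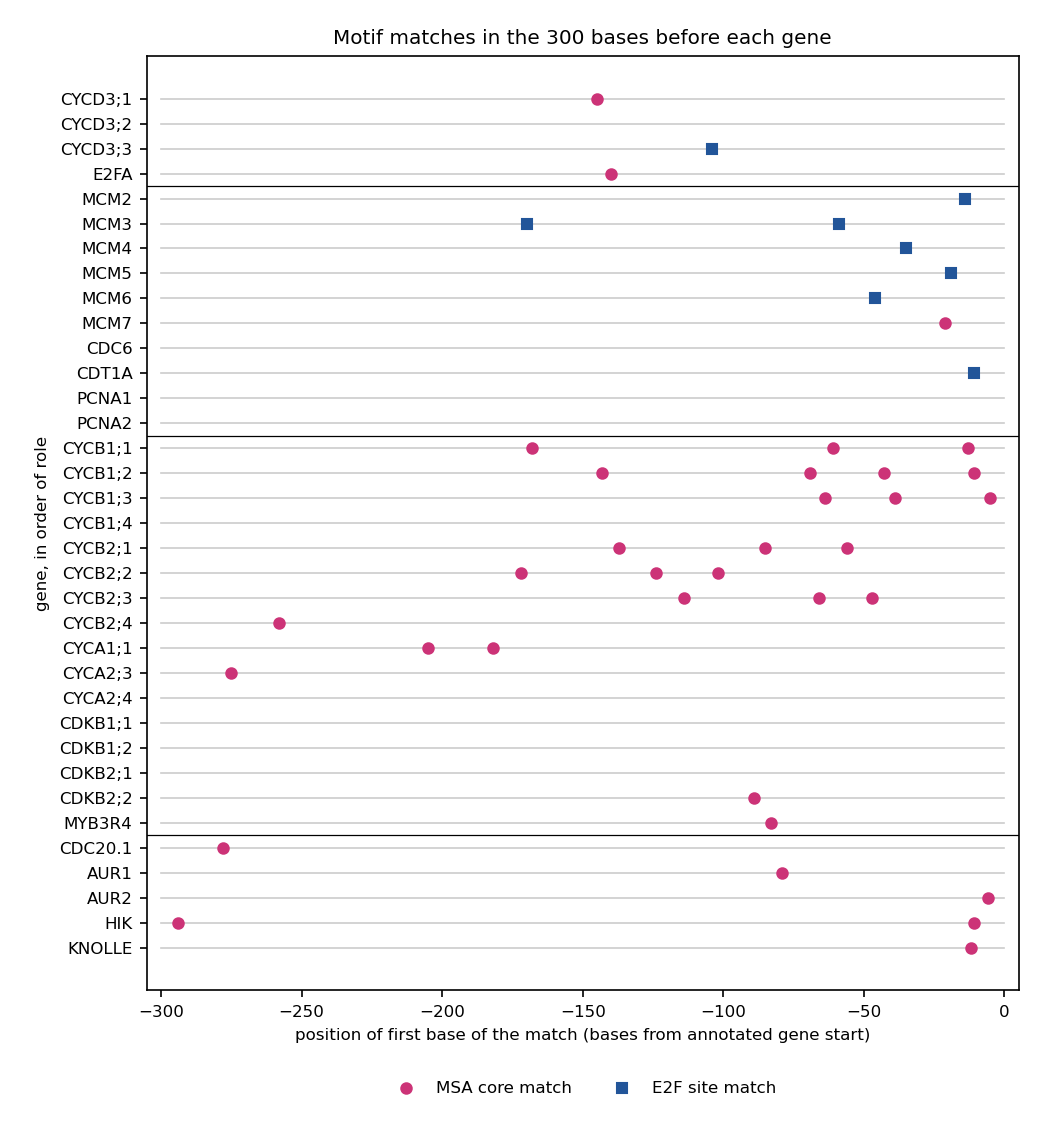
Matches to the MSA core (circles) and to an E2F site (squares) in the 300 bases before the annotated start of each of the 35 genes; the horizontal axis is the position of a match's first base relative to the start, in bases, and horizontal lines separate the 4 role groups. E2F sites sit in the upper block, before 6 of the 10 licensing and S phase genes and CYCD3;3. MSA cores sit before 16 of the 21 genes of G2, mitosis and cytokinesis, and before CYCD3;1, E2FA and MCM7.

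Per kilobase of exon and averaged over the 12 libraries, the cyclin CYCD3;2 stood highest at 31.8 CPM per kb, followed by KNOLLE (12.4), CYCD3;1 (12.1), PCNA2 (10.7), MCM7 (9.16) and CDKB2;1 (9.01). CYCB2;1 stood lowest at 0.483 CPM per kb; its counts of 0 to 13 per library kept it from the filter on low counts, which the other 34 genes passed. In WT alone, CYCD3;1 (11.1 ± 1.36 CPM per kb, SD, n = 3) and PCNA2 (10.8 ± 2.26 CPM per kb) did not differ beyond their spread. Counts of CDC20.1 are uncertain, because 33.2% of its exonic 50-base stretches also occur elsewhere in the genome. The same holds for CYCB2;3 (17.0%) and CYCB1;2 (11.6%). The strand setting of the counting is not given in the sources used here, and exons of a neighbour overlap AUR2 (36.9% of its exonic bases), KNOLLE (33.5%), PCNA2 (23.6%), AUR1 (19.2%), CDKB1;2 (15.2%) and CDKB2;2 (13.8%), so their counts are uncertain as well.

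Few of these genes differed between genotypes. In a single edgeR quasi-likelihood fit of all 17938 genes past the filter, with Benjamini-Hochberg adjustment and a threshold of 0.05 on the adjusted p, 6 of 204 gene and comparison pairs were called and 0 of the 6 passed 2-fold. CDC6 in grf123 against WT came nearest (log2 change -0.98), and passed 2-fold in 7 of 15 alternatives, reaching -1.17. CDC6 in GRF1_OE against grf123 passed it in 2 of 16. The 6 calls fell on 5 genes: CDC6, MCM7, MYB3R4, CYCA2;3 and CYCD3;2. In GRF1_OE against WT, 1 of 34 genes was called (MYB3R4, lower), while 21.8% of all genes tested were called, 10.0% higher and 11.8% lower. In GRF3_OE against WT, 0 of 34 were called by edgeR and 0 by DESeq2. Of all genes, 12.4% were called by edgeR, 6.07% higher and 6.34% lower. An unadjusted edgeR p under 0.05 was found for 6 of the 34, beside 4972 of the 17938 genes tested. In grf123 against WT, 1 of 34 was called (CDC6, lower), while 4.88% of all genes were called, 2.11% higher and 2.77% lower.

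The median log2 fold change of the 34 genes against WT was -0.01 in GRF1_OE, -0.01 in GRF3_OE and 0.10 in grf123, beside medians of 0.00, 0.00 and 0.01 over all genes tested. The fold changes of 32 of 34 genes in GRF1_OE lay within 0.5 on the log2 scale, as did 30 in GRF3_OE and 31 in grf123. These are 94.1%, 88.2% and 91.2%, beside 77.4%, 83.5% and 85.2% of all genes tested. The 95% intervals of 31, 29 and 31 genes lay within 1 on the log2 scale, so a change of more than 2-fold was outside the interval for most of them. These are 91.2%, 85.3% and 91.2%, beside 76.5%, 80.0% and 80.1% of all genes tested. Those 3 comparisons share the WT libraries, and comparisons with grf123 share the grf123 libraries. Between the overexpressors, 0 of 34 genes were called by edgeR and 0 by DESeq2. Of all genes, 1.14% were called by edgeR, 0.485% higher and 0.652% lower. An unadjusted edgeR p under 0.05 was found for 4 of the 34, beside 1839 of the 17938 genes tested. Against grf123, 3 of 34 were called in GRF1_OE (CDC6 higher, CYCA2;3 and CYCD3;2 lower), while 17.6% of all genes were called, 7.94% higher and 9.67% lower. In GRF3_OE against grf123, 1 of 34 was called (MCM7, lower), while 14.9% of all genes were called, 7.53% higher and 7.38% lower. In a test for any difference among the 4 genotypes, 4 of 34 passed (CDC6, MCM7, CYCD3;2 and CYCA2;3), while 27.2% of all genes did.

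**Figure D2:**
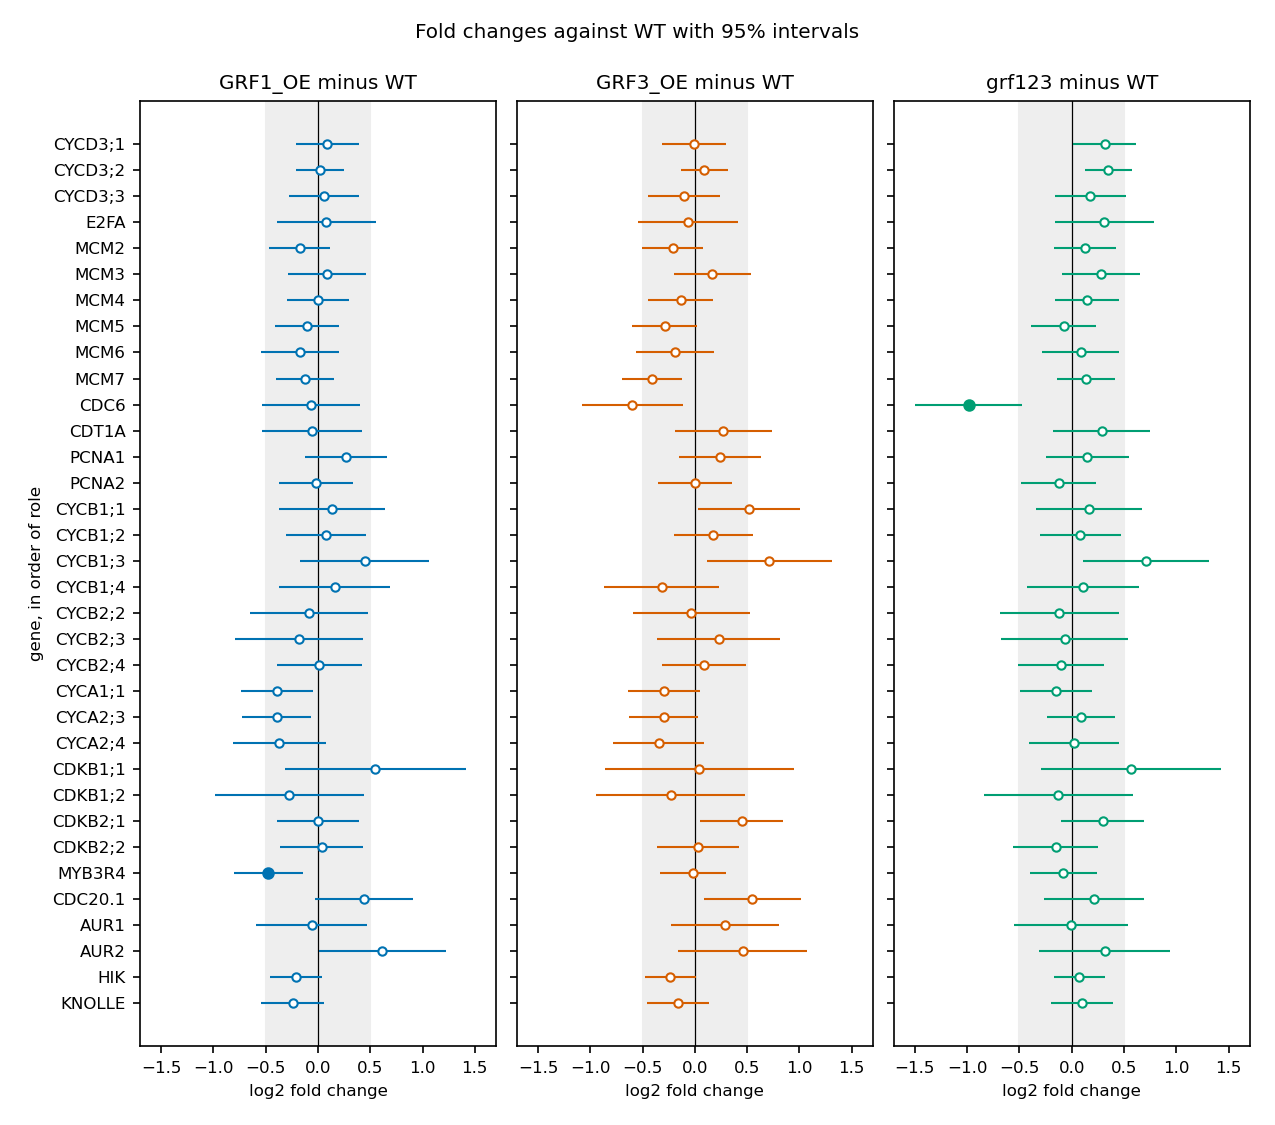
Log2 fold change of each of the 34 genes past the filter against WT in GRF1_OE, GRF3_OE and grf123, with 95% intervals; filled points were called by edgeR at an adjusted p under 0.05, open points were not, and the grey band spans 0.5 on either side of 0. MYB3R4 is filled in the left panel and CDC6 in the right panel, and 32, 30 and 31 of the points lie inside the band.

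The D-type cyclins and E2FA, which act before S phase, had higher means in the libraries labelled grf123 than in WT, with log2 differences of 0.18 to 0.35. None of the 4 passed edgeR's test there, and 0 were called by DESeq2. An unadjusted edgeR p under 0.05 was found for 2 of the 4, beside 3276 of the 17938 genes tested. CYCD3;2 (AT5G67260), a cyclin that keeps cells of young leaves dividing, had 61.9, 56.1 and 49.4 CPM in the grf123 libraries and 43.4, 46.1 and 39.5 CPM in WT. It had 41.4, 44.3 and 46.4 CPM in GRF1_OE and 46.9, 42.8 and 49.1 CPM in GRF3_OE. All 3 grf123 libraries lay above the 9 others, though grf123 replicate 3 barely cleared the highest GRF3_OE library. CYCD3;2 was lower in GRF1_OE than in grf123 by a log2 change of -0.33, with an SE of 0.11 and an edgeR adjusted p of 0.0330. This call was held by 11 of 16 alternatives; it was lost in DESeq2 (adjusted p = 0.0724), without GRF1_OE replicate 1 or 2 (0.117 and 0.0820) and without grf123 replicate 1 or 2 (0.179 and 0.0759). Against WT, its log2 difference of 0.35 in grf123 (SE 0.11) had an adjusted p of 0.0661.

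CYCD3;1 (AT4G34160), its close relative, had 21.6, 28.1 and 29.2 CPM in grf123, 23.5, 20.4 and 18.4 in WT, 21.1, 24.2 and 22.2 in GRF1_OE, and 24.3, 17.8 and 21.3 in GRF3_OE. The genotypes overlapped. CYCD3;3 had 14.6, 14.0 and 11.4 CPM in grf123 and 11.2, 11.5 and 12.3 in WT, with 13.3, 12.1 and 10.5 in GRF1_OE and 11.8, 10.2 and 10.3 in GRF3_OE, and again the groups overlapped. E2FA, a transcription factor of S phase genes, ran from 5.09 to 11.3 CPM over the 12 libraries, with a log2 difference of 0.31 in grf123 against WT that was not called. Summed over the 4 genes, levels were 96.9 to 109 CPM in grf123, 77.3 to 86.3 in WT, 82.6 to 88.5 in GRF1_OE and 78.1 to 88.8 in GRF3_OE. CYCD3;2 was the largest part of this sum, with means of 55.8 CPM in grf123 and 43.0 in WT.

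For a set of 7 shoot meristem genes, the summed level was 88.0 to 92.4 CPM in grf123, 58.4 to 73.5 in WT, 59.9 to 80.5 in GRF1_OE and 58.8 to 69.2 in GRF3_OE. Of the 7, 3 passed the filter and 0 were called by edgeR in grf123 against WT, and most of the sum was CLV1, the receptor kinase of the meristem. CLV1 was called lower than in grf123 in GRF1_OE (log2 change -0.52, edgeR adjusted p = 0.00351) and in GRF3_OE (-0.70, 0.000323). STM, another of the 7, was called higher in GRF1_OE than in WT (0.92, edgeR adjusted p = 0.0272). CLV3, which marks stem cells, was at 0 in all WT, GRF3_OE and grf123 libraries, and WUS in all grf123 libraries. The part of these genes' tissue in the D-type cyclin levels was not tested.

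Licensing and S phase genes held both differences that passed in every alternative, 1 each for CDC6 and MCM7. CDC6 (AT2G29680) had 4.71, 3.05 and 4.26 CPM in the grf123 libraries and 6.73, 7.57 and 12.7 CPM in WT. It had 8.15, 6.89 and 8.77 CPM in GRF1_OE and 5.65, 5.92 and 4.86 CPM in GRF3_OE. The grf123 libraries lay below the 9 others, the GRF3_OE libraries lay between them and the rest, and WT replicate 3 stood far above the other WT libraries. CDC6 fell in grf123 against WT by a log2 change of -0.98 (SE 0.25, 95% interval -1.50 to -0.47, edgeR adjusted p = 0.0201), a level 0.505 times that of WT. It was higher in GRF1_OE than in grf123, with a log2 change of 0.92 (SE 0.24, adjusted p = 0.00888).

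The CDC6 counts behind these values were small, 10 to 67 per library, and 1 library carried part of the difference from WT: without WT replicate 3 its log2 change in grf123 was -0.78, with an edgeR adjusted p of 0.0699. Without grf123 replicate 2 or 3, the adjusted p was 0.0623 or 0.0940. The difference between GRF1_OE and grf123 passed the threshold in all 16 alternatives, with edgeR or DESeq2 adjusted p-values from 0.00344 to 0.0378, among them a fit of those 6 libraries with no WT library (0.00725). In GRF3_OE the log2 difference of CDC6 from WT was -0.60 (SE 0.24) and was not called (adjusted p = 0.0978). Exons of a neighbour on the other strand overlap 5.57% of its exonic bases.

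MCM7 (AT4G02060) had 17.4, 21.5 and 17.9 CPM in GRF3_OE and 27.9, 28.7 and 27.0 CPM in grf123. It had 24.5, 23.9 and 28.5 CPM in WT and 18.9, 25.3 and 24.7 CPM in GRF1_OE. All 3 GRF3_OE libraries lay below every WT and grf123 library, and overlapped with GRF1_OE. MCM7 was lower in GRF3_OE than in grf123 by a log2 change of -0.55 (SE 0.13, interval -0.82 to -0.28, edgeR adjusted p = 0.00637), and this passed in all 16 alternatives. Against WT the log2 difference was -0.41 (SE 0.14) with an adjusted p of 0.0502, on the far side of the threshold.

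The other helicase subunits did not follow MCM7 past the threshold in any of the 6 comparisons. In GRF3_OE against WT the log2 differences were -0.21 for MCM2, 0.17 for MCM3, -0.14 for MCM4, -0.29 for MCM5 and -0.19 for MCM6, none of them called by edgeR. MCM2 was 14.4 to 18.5 CPM in GRF3_OE, 16.7 to 18.1 in GRF1_OE and 19.3 to 22.9 in grf123, with 17.6 to 22.8 in WT. Within WT, the subunits did not vary together: WT replicate 3 had the highest MCM4, MCM5 and MCM6 of the 12 libraries (21.96, 25.9 and 14.1 CPM) and the lowest MCM3 (11.9 CPM, from 27 counts).

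PCNA1 (AT1G07370) and PCNA2 (AT2G29570) encode the sliding clamp of the DNA polymerases. PCNA2 had 14.5, 11.8 and 12.3 CPM in GRF1_OE, 14.6, 11.4 and 13.1 in GRF3_OE, 10.9, 12.2 and 12.5 in grf123, and 15.7, 10.6 and 11.9 in WT. PCNA1 had 12.3, 8.33 and 10.7 CPM in GRF1_OE, 10.0, 10.7 and 9.61 in GRF3_OE, 10.2, 7.32 and 9.95 in grf123, and 8.0, 8.59 and 9.66 in WT. For both clamps the 4 genotypes overlapped, and PCNA2 had the highest adjusted p among licensing genes in the test for any genotype difference, 0.900. CDT1A, which recruits the helicase together with CDC6, ran from 4.39 to 8.44 CPM and was 0.29 higher on the log2 scale in grf123 than in WT, a difference that was not called.

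**Figure D3:**
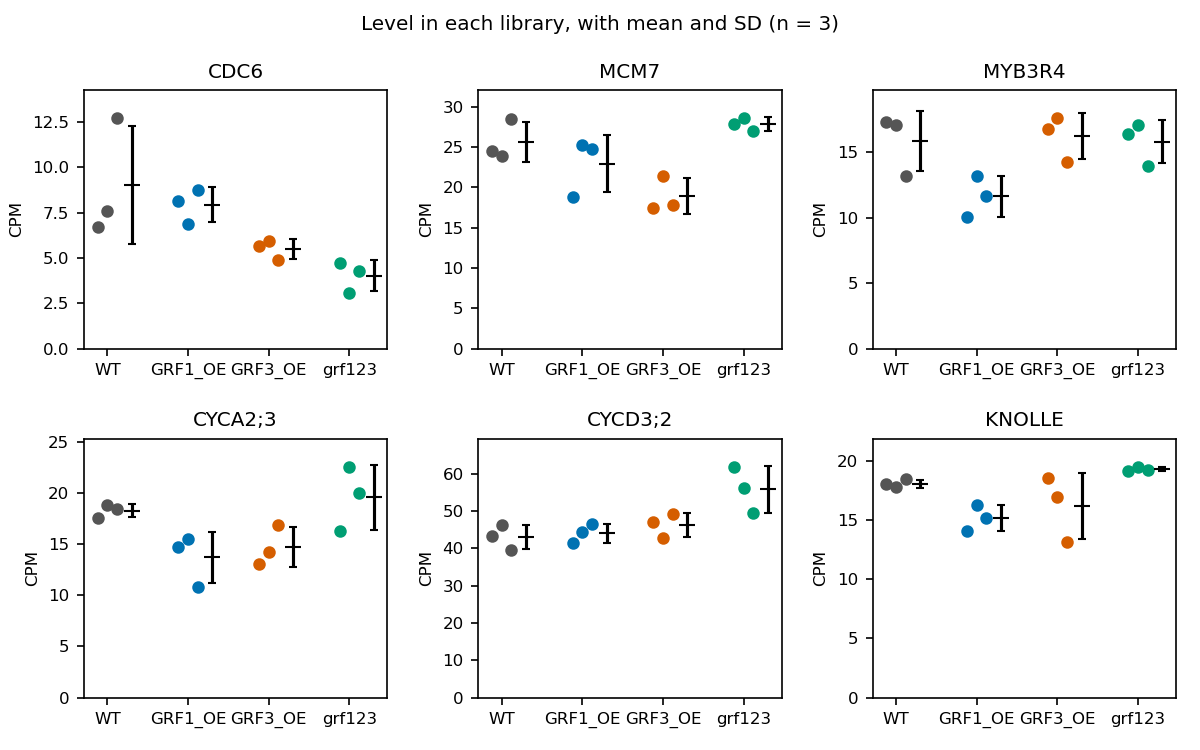
CPM of the 5 genes called in at least 1 comparison, and of KNOLLE, in each of the 12 libraries; points are libraries, and the dash with bars beside each group is the mean with its SD (n = 3). CDC6 is lowest in the 3 grf123 libraries (3.05 to 4.71 CPM), MCM7 is low in GRF3_OE (17.4 to 21.5 CPM), and MYB3R4 in GRF1_OE (10.1 to 13.2 CPM).

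Among the G2 and mitosis genes, MYB3R4 in GRF1_OE was the single call against WT. MYB3R4 (AT5G11510), the MYB factor that activates many mitotic genes through MSA elements, had 10.1, 13.16 and 11.6 CPM in GRF1_OE. It had 17.3, 17.0 and 13.17 CPM in WT, 16.8, 17.6 and 14.2 CPM in GRF3_OE, and 16.4, 17.1 and 13.9 CPM in grf123. The GRF1_OE libraries were below the 9 others, but the highest of them all but met the lowest WT library. MYB3R4 fell in GRF1_OE against WT by a log2 change of -0.48, with an SE of 0.16 and an edgeR adjusted p of 0.0346.

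The MYB3R4 call was held by 6 of 15 alternatives. It was lost without GRF1_OE replicate 1 or 3 and without WT replicate 1 or 2 (edgeR adjusted p of 0.137, 0.0763, 0.126 and 0.118), in DESeq2 (adjusted p = 0.0901), and when a trend of fold change with exonic length was removed (log2 change -0.26, adjusted p = 0.272). MYB3R4 has the longest exonic sequence of the 35 genes, 3546 bp. Against GRF3_OE its log2 difference in GRF1_OE was -0.46 (SE 0.15), which was not called (adjusted p = 0.185).

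CYCA2;3 (AT1G15570), an A-type cyclin known to hold back the switch from division to endoreduplication, had 14.7, 15.5 and 10.8 CPM in GRF1_OE and 16.2, 22.6 and 19.98 CPM in grf123. It had 13.0, 14.2 and 16.8 CPM in GRF3_OE and 17.5, 18.8 and 18.4 CPM in WT. The GRF1_OE libraries lay below all WT and grf123 libraries. CYCA2;3 was lower in GRF1_OE than in grf123, at -0.49 on the log2 scale with an SE of 0.16 and an edgeR adjusted p of 0.0325, a call held by 9 of 16 alternatives; without GRF1_OE replicate 3 the adjusted p was 0.159, and DESeq2 gave 0.0717. The log2 differences of CYCA1;1, CYCA2;3 and CYCA2;4 from WT were -0.39, -0.40 and -0.37 in GRF1_OE and -0.30, -0.30 and -0.35 in GRF3_OE, and none of the 6 was called.

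CDKB2;1 (AT1G76540), a plant-specific mitotic kinase, had 16.8, 13.8 and 13.9 CPM in GRF3_OE, 7.83, 12.9 and 11.3 in GRF1_OE, 11.7, 10.7 and 15.7 in grf123, and 11.4, 9.46 and 12.3 in WT. The GRF3_OE libraries lay above every WT and GRF1_OE library, but the log2 difference from WT, 0.45 (SE 0.19), was not called (edgeR adjusted p = 0.125). CYCB1;2 had 14.0, 15.3 and 13.5 CPM in GRF3_OE, 10.7, 15.8 and 12.6 in GRF1_OE, 10.1, 14.0 and 15.3 in grf123, and 10.8, 13.1 and 15.4 in WT, and the genotypes overlapped. CYCB1;1, the cyclin whose promoter is widely used to mark cells entering mitosis, was 6.56 to 8.47 CPM in GRF3_OE and 2.63 to 5.84 in WT, a log2 difference of 0.52 (SE 0.24) that was not called (adjusted p = 0.155).

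Of the remaining B-type cyclins, CYCB1;3, at 2.33 to 4.71 CPM over the 12 libraries, had the largest uncalled differences from WT, 0.71 on the log2 scale in both GRF3_OE and grf123 (SE 0.29 each). Its counts were 6 to 62 per library. CYCB1;4, CYCB2;2, CYCB2;3 and CYCB2;4 had log2 differences from -0.32 to 0.23 against WT, none of them called. CDKB1;1, the kinase partner of A2 cyclins, ran from 0.61 to 5.63 CPM, and both extremes were grf123 libraries; grf123 replicate 2 had 2 counts of it. CDKB1;2 and CDKB2;2 had log2 differences from -0.27 to 0.04 against WT.

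Summed over the 16 G2 and mitosis genes, levels were 104 to 116 CPM in GRF1_OE, below the 119 to 124 CPM of WT, with 119 to 131 in GRF3_OE and 115 to 134 in grf123. The lower sum in GRF1_OE largely follows CYCA2;3, MYB3R4 and CYCA1;1. Their means were 13.7, 11.6 and 9.47 CPM in GRF1_OE and 18.2, 15.8 and 12.4 CPM in WT. Of the 15 genes tested, 8 lay above 0 and 7 below in GRF1_OE against WT, with a median log2 fold change of 0.0008. The sum over 5 root tip genes was also below WT in GRF1_OE, 47.8 to 50.9 CPM against 58.2 to 63.2, with 44.7 to 60.7 in GRF3_OE and 58.0 to 68.9 in grf123. Of these 5, 2 passed the filter and 1, the radial patterning gene SCR, was called lower by edgeR in GRF1_OE against WT. Over all genes tested, 11.8% were called lower there. SHR, the other gene tested, was called lower than in grf123 in GRF1_OE (log2 change -0.73, edgeR adjusted p = 0.00516) and in GRF3_OE (-0.63, 0.0151). Over all genes tested, 9.67% and 7.38% were called lower in those comparisons. Most of the sum was SCR, with means of 36.9 CPM in GRF1_OE and 47.8 in WT, so the sum largely follows this gene. The part of root tissue in the G2 and mitosis levels was not tested.

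Genes of mitosis exit and cytokinesis gave 0 calls by DESeq2 in the 6 comparisons and 0 in the edgeR fit of all 12 libraries. KNOLLE (AT1G08560), the syntaxin that fuses vesicles at the cell plate, had 14.1, 16.2 and 15.1 CPM in GRF1_OE, 18.5, 16.9 and 13.1 in GRF3_OE, 19.2, 19.5 and 19.2 in grf123, and 18.03, 17.8 and 18.4 in WT. Its GRF1_OE libraries lay below WT and grf123, with a log2 difference from grf123 of -0.34 (SE 0.14, adjusted p = 0.0952). With the length trend removed, KNOLLE was called lower in GRF1_OE than in grf123 (log2 change -0.43, edgeR adjusted p = 0.0451, and -0.44 and 0.0493 with the replicate block as well). HIK (AT1G18370), a kinesin of the phragmoplast, had 21.3, 21.5 and 22.2 CPM in GRF1_OE, 20.6, 19.7 and 23.3 in GRF3_OE, 25.0, 26.2 and 27.3 in grf123, and 25.0, 23.9 and 26.8 in WT. Every library of both overexpressors lay below every WT and grf123 library, and the log2 differences from WT were small, -0.21 in GRF1_OE and -0.23 in GRF3_OE (SE 0.12 each), and were not called.

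CDC20.1 (AT4G33270), the activator of the complex that triggers anaphase, had 11.3, 11.4 and 9.61 CPM in GRF3_OE, 10.7, 11.1 and 7.81 in GRF1_OE, 7.96, 5.18 and 10.4 in grf123, and 8.13, 7.86 and 4.39 in WT. GRF3_OE lay above WT, with a log2 difference of 0.55 (SE 0.22, edgeR adjusted p = 0.111). AUR1 and AUR2, the aurora kinases of the mitotic spindle, differed from WT on the log2 scale by -0.06 and 0.62 (GRF1_OE), 0.29 and 0.46 (GRF3_OE), and -0.01 and 0.31 (grf123), none of them called. AUR1 was lowest in grf123 replicate 2, at 2.74 CPM from 9 counts.

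**Figure D4:**
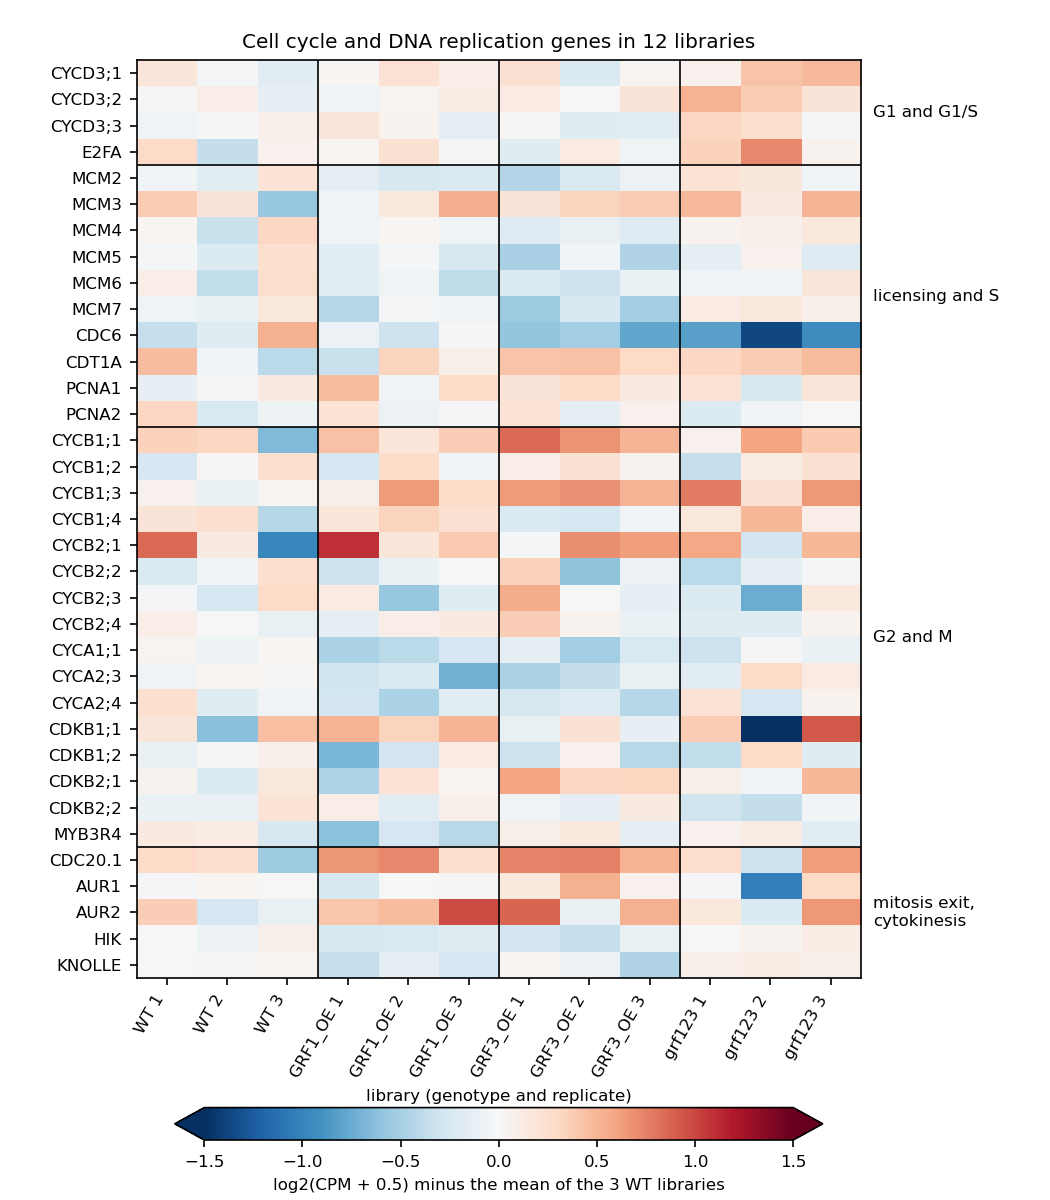
Log2(CPM + 0.5) of the 35 genes in each library minus the mean of the 3 WT libraries; rows are genes in role groups, columns are libraries, red is above and blue below the WT mean, and colours saturate at 1.5. CDC6 is blue in the 3 grf123 libraries, and the WT libraries differ among themselves for MCM3, CYCB1;1 and the scarce CYCB2;1.

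A further 142 genes of the pathway in 8 lists, of which 130 passed the filter, had median log2 fold changes against WT of 0.03 in GRF1_OE, 0.01 in GRF3_OE and 0.09 in grf123. By edgeR at an adjusted p under 0.05, 2 rose and 14 fell in GRF1_OE, 2 rose and 9 fell in GRF3_OE, and 1 rose and 0 fell in grf123, or 12.3%, 8.46% and 0.769% of the 130 beside 21.8%, 12.4% and 4.88% of all genes tested. Against grf123, 0 rose and 19 fell in GRF1_OE, and 1 rose and 15 fell in GRF3_OE, 14.6% and 12.3% beside 17.6% and 14.9%. With the length trend removed, 4 of the 16 calls in GRF1_OE against WT, 0 of the 11 in GRF3_OE and the 1 in grf123 were still made. Against grf123, 6 of the 19 calls in GRF1_OE and 5 of the 16 in GRF3_OE were still made. Between the overexpressors 0 of the 130 were called.

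Among 28 tested genes of licensing and the replication fork, TIL1, the catalytic subunit of DNA polymerase epsilon, fell against WT by a log2 change of -0.46 in GRF1_OE and -0.52 in GRF3_OE (edgeR adjusted p = 0.0119 and 0.00921). TIL1 is 8576 bp long, and with the trend of fold change with exonic length removed its log2 differences were 0.01 and -0.05, neither called. TSO2, a small subunit of ribonucleotide reductase, rose in GRF1_OE by 0.43 (adjusted p = 0.00517), a call held by all 15 alternatives. ICU2, the catalytic subunit of DNA polymerase alpha, was 24.8 ± 5.76 CPM in GRF1_OE and 24.3 ± 0.785 CPM in GRF3_OE against 33.7 ± 1.23 CPM in grf123 (SD, n = 3). It was called lower in both (log2 changes of -0.42 and -0.46, adjusted p = 0.0328 and 0.0238), but not with the length trend removed (-0.16 and -0.20). In grf123 against WT, 0 of the 28 were called by edgeR.

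Among regulators, RBR1, the retinoblastoma protein that restrains E2F factors, fell against WT in both overexpressors, by log2 changes of -0.41 in GRF1_OE and -0.33 in GRF3_OE (edgeR adjusted p = 0.00783 and 0.0439), while with the length trend removed its log2 differences were -0.17 and -0.10, neither called. E2FC, a repressing member of the E2F family, rose in grf123, from 5.59 ± 0.657 CPM in WT to 9.43 ± 1.06 CPM (SD, n = 3; log2 change 0.73, adjusted p = 0.0394), a call held by 6 of 15 alternatives and not by DESeq2 (adjusted p = 0.105). CYCD1;1, another D-type cyclin, fell against WT by -0.46 in GRF1_OE and -0.44 in GRF3_OE (adjusted p = 0.0113 and 0.0266), and both calls were lost with the length trend removed (-0.35 in each). Against grf123, CYCD1;1 was lower by -0.69 in GRF1_OE and -0.67 in GRF3_OE (edgeR adjusted p = 0.000354 and 0.000641). Each of these 2 calls was held by all 16 alternatives, with -0.60 in both when the length trend was removed. Of 11 tested inhibitors of cyclin-dependent kinases, KRP6 rose by 0.77 and KRP4 fell by 0.39 in GRF3_OE against WT (adjusted p = 0.0352 and 0.0436), and 0 were called in GRF1_OE or grf123. Of 14 tested genes of the anaphase-promoting complex and its partners, CCS52B rose in GRF1_OE (log2 change 0.70, adjusted p = 0.0277) and CDC20.2, the close copy of CDC20.1, rose in GRF3_OE (0.77, adjusted p = 0.0441). Alternatives held these calls in part: 6 of 15 for KRP6, 4 for KRP4, 9 for CCS52B and 7 for CDC20.2.

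In the list for the DNA damage response, the kinase gene ATM fell in both overexpressors against WT, by log2 changes of -0.44 and -0.50 (edgeR adjusted p = 0.00335 and 0.00282). ATM is 9734 bp long, and with the length trend removed its log2 differences were 0.08 and 0.01, neither called. PARP1, a poly(ADP-ribose) polymerase, fell in GRF1_OE by -0.72 (adjusted p = 0.00148) and was called in all 15 alternatives. Of 12 tested histone H3.1 and H4 genes, which are near-identical copies and therefore uncertain, 0 were called by edgeR in any comparison.

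Of the 22 spindle, chromosome and cytokinesis genes, 9 fell and 0 rose in GRF1_OE against WT, 4 fell and 0 rose in GRF3_OE, and 0 were called by edgeR in grf123 (0 by DESeq2), with median log2 fold changes of -0.42, -0.33 and -0.01. Over all genes tested, 11.8%, 6.34% and 2.77% were called lower. TOPII, the topoisomerase that untangles chromosomes, was 40.6 ± 6.83 CPM in GRF1_OE, 52.1 ± 4.71 in GRF3_OE, 69.5 ± 5.53 in grf123 and 73.7 ± 4.01 in WT (SD, n = 3). Its log2 changes against WT were -0.85 in GRF1_OE and -0.50 in GRF3_OE (adjusted p = 1.8e-05 and 0.00669). In GRF1_OE, WYR, the plant form of the centromere protein INCENP, fell by -0.74, the phragmoplast kinesins POK2 and POK1 by -0.73 and -0.67, and the spindle kinesin ATK1 by -0.59. SMC2 and SMC3 (AT5G48600), chromosome-structure proteins, fell by -0.45 and -0.44 in GRF1_OE and by -0.57 and -0.59 in GRF3_OE. Against grf123, 11 of the 22 fell in GRF1_OE and 8 in GRF3_OE, with 5 to 11 and 3 to 8 when single libraries were left out and 6 and 5 by DESeq2, while 9.67% and 7.38% of all genes were called lower.

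These genes are long, with a median exonic length of 2876 bp against 1780 bp for all genes tested, and long genes stood lower in the overexpressors across the transcriptome. In GRF1_OE against WT the median log2 fold change was 0.25 for 2112 genes of up to 1000 bp and -0.26 for 2197 genes of more than 3000 bp; in GRF3_OE it was 0.22 and -0.25, and in grf123 0.06 and -0.06. The 9 spindle, chromosome and cytokinesis genes that fell in GRF1_OE had a median length of 4294 bp, and the 13 others 2188 bp. When the trend with length was removed in each library, 1 of 22 (TOPII) was still called lower in GRF1_OE against WT and 0 in GRF3_OE, and 3 and 2 were called lower against grf123, while calls over all genes went from 3911 to 2535 in GRF1_OE against WT and from 2226 to 893 in GRF3_OE. The median log2 fold change of the 22 was then -0.19 in GRF1_OE and -0.07 in GRF3_OE against WT, and -0.36 and -0.21 against grf123. TOPII in GRF1_OE against WT was then at -0.54, WYR at -0.38 and POK2 and POK1 at -0.27 each. The part of length in the lower levels of these genes was not tested beyond this. The share of unique alignments outside genes was also lower in the overexpressors, 4.08 to 4.66% in GRF1_OE and 4.57 to 5.11% in GRF3_OE, against 6.39 to 9.53% in grf123 and 8.28 to 12.1% in WT, and its part in the length trend was not tested.

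The 8 longest of the cell cycle and replication genes described first, MCM2 to MCM7, MYB3R4 and HIK, all exceed 2500 bp. Of the 8, 6 lay below 0 in GRF1_OE, 7 in GRF3_OE and 2 in grf123 against WT; MCM3 lay above 0 in each (0.09, 0.17 and 0.28). The median log2 fold change of the 8 was -0.15 in GRF1_OE and -0.20 in GRF3_OE against WT, with 0.11 in grf123, while that of the 26 shorter genes was 0.02, 0.04 and 0.10. The length limit was chosen after the values were seen. The lower MCM7 level in GRF3_OE than in grf123 kept its call with the trend removed, as did the CDC6 differences and the lower CYCD3;2 level in GRF1_OE than in grf123 (log2 change -0.40, edgeR adjusted p = 0.0141). MYB3R4 lost its call, and CYCA2;3 lost its own at a log2 change of -0.46 (adjusted p = 0.0548).

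**Figure D5:**
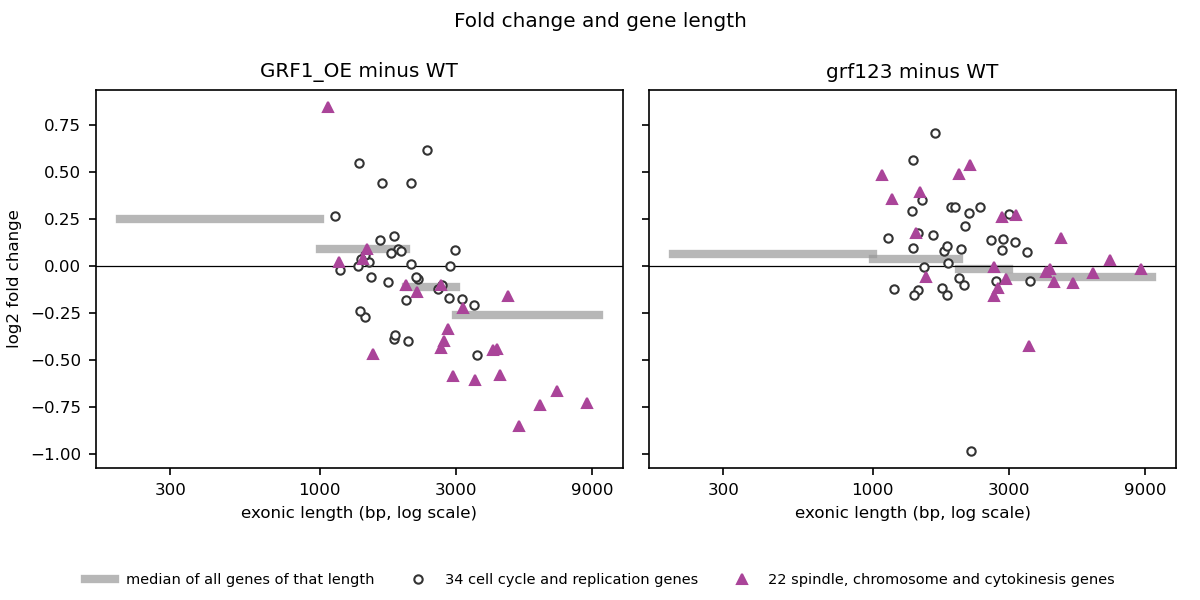
Log2 fold change against WT in GRF1_OE (left) and grf123 (right) by exonic length in bp on a log scale; open circles are the 34 cell cycle and replication genes, triangles the 22 spindle, chromosome and cytokinesis genes, and grey bars the median of all tested genes of that length. In GRF1_OE the bars step down from 0.25 for genes of up to 1000 bp to -0.26 for genes of more than 3000 bp, and the triangles lie at or below them at long lengths; in grf123 they step from 0.06 to -0.06.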

How the data were processed

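Per the labels' protocols, mRNA was bound to magnetic beads and sequenced from NEBNext libraries. The deposited files hold raw counts of reads per locus, 1 file per library; the authors made them with Trimmomatic, TopHat2 2.0.14 on TAIR10 and HTSeq, with DESeq2 downstream, per the submitters' processing notes. Reads with more than 1 alignment are not counted by HTSeq. Rows that name no gene took 57.6 to 76.9% of all counts and entered neither library sizes nor tests.

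The test was edgeR 4.0.16 (R 4.3.3) after filterByExpr (minimum count 10, total 15) and TMM scaling, with a robust quasi-likelihood fit of all 12 libraries with genotype as the only term (8 residual degrees of freedom, common biological coefficient of variation 0.107), the F test, and Benjamini-Hochberg adjustment over 17938 genes. The fit was tested on simulated data. Standard errors are the absolute log2 change over the square root of F. CPM are per library with TMM factors. Intervals cover the spread between libraries, and counts near 0 cover counting error only, since without molecular identifiers reads are no independent molecules. Locations and lengths came from RefSeq TAIR10.1, which 28009 of the 28775 loci matched.

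The 35 genes, the other lists and the marker sets were chosen with earlier results of these data known. The 35 are named by locus, with values in every library for called genes and for the 3 highest per kb in each role group; of the other lists, called genes are named, and not all are written out. Of the marker sets, the 5 root hair genes summed to 17.6 to 22.3 CPM in WT, while GRF1_OE had 5.35 to 5.74, GRF3_OE 8.26 to 19.1 and grf123 2.13 to 5.20. The 7 stomatal lineage genes summed to 49.6 to 64.5, 41.2 to 56.5, 51.9 to 60.2 and 49.1 to 54.0 CPM, and the 8 leaf photosynthesis genes to 40406 to 44461, 37967 to 42266, 36152 to 43157 and 39216 to 46069 CPM, in the same order. The 5 seed storage genes summed to 5.84 to 40.8 CPM in WT, while GRF1_OE had 0 to 0.411, GRF3_OE 0 to 0.275 and grf123 0.487 to 38.7. In GRF1_OE, GRF3_OE and grf123 against WT, edgeR called 3, 0 and 0 of 8 tested leaf photosynthesis genes lower. Root hair genes had 2, 1 and 2 lower calls of 2 tested. Stomatal lineage genes had 1, 0 and 0 of 7, and seed storage genes 1, 0 and 0 of 2. Over all genes tested, 11.8%, 6.34% and 2.77% were called lower. Against grf123, 3 of the 8 leaf photosynthesis genes were called lower in GRF1_OE and 2 in GRF3_OE, beside 9.67% and 7.38% of all genes. Alternatives were RLE or upper-quartile factors, 2 other count filters, DESeq2 1.42.0, fits of 6 libraries, the replicate number as a block, removal of a length trend by a lowess offset per library, and each library left out.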

Additional observations from a re-analysis of the deposited data

How the results depend on the processing

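Of 3155 recomputed log2 fold changes of the 34 cell cycle and replication genes, 3120 kept their direction and side of the threshold or stayed uncalled in both fits, 25 lost a call, 10 gained one and 0 reversed a call. CDC6 in GRF1_OE against grf123 and MCM7 in GRF3_OE against grf123 were called in all 16 alternatives. CDC6 in grf123 against WT was called in 11 of 15, MYB3R4 in GRF1_OE against WT in 6 of 15, CYCD3;2 and CYCA2;3 in GRF1_OE against grf123 in 11 and 9 of 16. With RLE factors, GRF3_OE against WT had 1 call (MCM7). With upper-quartile factors, GRF1_OE against WT had 0 and grf123 against WT had 2 (CYCD3;2 and CDC6). DESeq2 gave 0 for GRF1_OE against WT, 1 for GRF1_OE against grf123 (CDC6) and 2 for any genotype difference (MCM7 and CDC6). Fits of only the 6 compared libraries gave 0 for GRF1_OE against WT and 0 for grf123 against WT. Removing the length trend gave 0 for GRF1_OE against WT and 2 for GRF3_OE against grf123 (CYCD3;2 and MCM7). The causes of these moves were not tested.

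Leaving out each replicate in turn gave 0 to 1 calls for GRF1_OE against WT, 0 to 1 for GRF3_OE against WT (MCM7 without GRF3_OE replicate 2), 0 to 1 for grf123 against WT (0 without grf123 replicate 2 or WT replicate 3, and CYCD3;2 in place of CDC6 without grf123 replicate 3), 0 to 0 between the overexpressors, 1 to 3 for GRF1_OE against grf123, 1 to 3 for GRF3_OE against grf123 (3 without grf123 replicate 1), and 1 to 4 for any genotype difference (1, CDC6, without GRF3_OE replicate 1). A comparison that leaves a group with 2 libraries draws its spread from all groups. Lower calls among the 22 spindle, chromosome and cytokinesis genes were 4 to 8 for GRF1_OE against WT and 2 to 5 for GRF3_OE against WT when single libraries were left out, and DESeq2 gave 7 and 4. Of the other pathway genes, the called log2 differences of TIL1 in GRF1_OE, ATM in GRF1_OE, POK2 in GRF3_OE and ATM in GRF3_OE against WT turned to 0.0148, 0.0759, 0.0369 and 0.0110 with the length trend removed, and to 0.00514, 0.0733, 0.0272 and 0.00530 with the block as well, none of them called. KNOLLE in GRF1_OE against grf123 gained a call in both. The median log2 fold change of the 34 genes in GRF1_OE against WT ran from -0.12 (without WT replicate 2) to 0.03.

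With the replicate block, any genotype difference had 2 calls (MCM7 and CDC6). With the block and the length trend removed together, chosen after seeing the data, as were the alternatives for other pathway genes and comparisons between the other genotypes without WT replicate 3, it had 2 (CYCD3;2 and CDC6), and GRF1_OE against WT had 0. Same-numbered libraries did not deviate together throughout (correlations from -0.131 to 0.138), so the numbers were not taken as pairs; in GRF3_OE and WT they were 0.138, 0.0969 and 0.0913, and 6 of 6 libraries correlated best with their own number. Depth limits what could be seen for the scarcest genes: the half-width of the 95% interval against WT reached 0.90 on the log2 scale, with a median near 0.39.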
